A study of Mus musculus with 2 samples.

Results

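Small nucleolar RNAs (snoRNAs) and small Cajal body RNAs (scaRNAs) that carried reads in total RNA of the mouse line G1E are described here. A gene was taken when the annotation types it as snoRNA or scaRNA and the deposited expected count was at least 10 in both libraries. By that rule 87 of the 1525 snoRNA and scaRNA genes in the tables were members, out of 43346 genes in all. The members were chosen by their expected counts, which are therefore a description and carry no test. Just inside the minimum lay Gm22786 with 10 and 49 counts in replicates 1 and 2, Snora17 with 10.07 and 35.92, and Snora26 with 10.09 and 13.86. Just outside it lay Gm24455 with 9 and 33 counts, Snora68 with 9 and 49, and Gm23119 with 8 and 18.

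snoRNAs guide chemical changes of other RNAs by base pairing. Those with C and D boxes steer fibrillarin to methylate the ribose of ribosomal RNA, those with H and ACA boxes steer dyskerin to turn uridine into pseudouridine, and scaRNAs do the same for the spliceosomal snRNAs in Cajal bodies. U3 is a C/D RNA that takes part in cutting the ribosomal RNA precursor instead. Most mammalian members are cut out of introns of a host gene, and many hosts code for parts of the ribosome or of the translation machinery.

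G1E is an immortalized line labelled as an erythroid progenitor without Gata1, the transcription factor of erythroid maturation; the strain label is C57BL/6J. The 2 libraries are biological replicates 1 and 2 of 1 group with no treatment named, each made by ScriptSeq from 100 ng of RNA depleted of ribosomal RNA, with a labelled size range of 200 to 1000. Expected counts on genes summed to 58094631 and 55274368, and a count of 0 allowed up to 0.0516 and 0.0543 CPM (counts scaled by library depth), for counting error only. Mean fragments were 213.17 nt in replicate 1 and 192.46 nt in replicate 2, computed from the deposited effective lengths. Gata1 had 7.06 and 7.13 TPM (length-scaled transcript abundance with the same total in each library); gene values do not show which part of the locus the reads cover. The erythroid progenitor markers Kit, Gata2, Tal1, Nfe2, Gfi1b, Klf1, Epor and Tfrc were each at 1 TPM or more in both libraries. Of the markers of other lineages reported here S100a8 had 0 counts, and Cd3e, Lck, Cd68 and Col1a1 were under 1 TPM in at least 1 library.

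The sequences that follow belong to the RNAs on which the levels, the box search and the library comparison turn. They are GENCODE M21 transcripts on GRCm38, printed 5′ to 3′ with the matched boxes in capitals. For the C/D pair the capitals mark TGATGA within the first 20 bases and CTGA within the last 15. For the others they mark ANANNA between 35% and 65% of the length and ACA ending 3 bases before the 3′ end. Snord15b (chr7:99479563-99479707, minus strand, in Rps3) and Gm25835 (chr11:69668852-69668995, minus strand, in Eif4a1) show the C/D pattern, the latter under a symbol that names no family.
Snord15b: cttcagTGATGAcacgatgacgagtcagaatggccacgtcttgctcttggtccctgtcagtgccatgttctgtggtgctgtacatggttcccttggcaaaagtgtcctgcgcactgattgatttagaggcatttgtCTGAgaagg
Gm25835: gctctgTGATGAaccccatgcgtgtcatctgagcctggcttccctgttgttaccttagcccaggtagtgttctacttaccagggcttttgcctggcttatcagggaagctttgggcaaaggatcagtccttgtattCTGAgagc
Gm22988 (chr11:69669635-69669778, minus strand) lies in the same host as Gm25835 but has the H/ACA pattern, and Gm25291 (chr11:51737779-51737922, minus strand, in Sec24a) is 97.2% identical to it.
Gm22988: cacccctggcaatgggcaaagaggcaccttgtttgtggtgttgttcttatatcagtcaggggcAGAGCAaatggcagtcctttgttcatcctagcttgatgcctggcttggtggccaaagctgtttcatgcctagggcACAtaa
Gm25291: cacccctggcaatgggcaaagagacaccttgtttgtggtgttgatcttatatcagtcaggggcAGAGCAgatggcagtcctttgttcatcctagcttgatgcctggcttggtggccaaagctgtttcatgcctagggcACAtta
Gm23442 (chr17:35162563-35162696, minus strand, in Prrc2a) had the highest mean TPM among the members, and Gm23105 (chr10:108363665-108363798, plus strand, in Pawr) is 94.8% identical to it.
Gm23442: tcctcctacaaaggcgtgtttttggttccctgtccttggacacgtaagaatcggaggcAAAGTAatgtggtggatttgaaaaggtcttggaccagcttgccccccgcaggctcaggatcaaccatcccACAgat
Gm23105: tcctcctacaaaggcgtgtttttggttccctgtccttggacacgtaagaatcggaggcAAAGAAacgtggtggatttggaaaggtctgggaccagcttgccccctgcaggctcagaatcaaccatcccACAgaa
Gm22422 (chr16:56035753-56035887, minus strand, in Trmt10c) had the highest level per annotated length, and Gm22767 (chr4:132838383-132838547, minus strand, in Ppp1r8) is a scaRNA of the H/ACA pattern.
Gm22422: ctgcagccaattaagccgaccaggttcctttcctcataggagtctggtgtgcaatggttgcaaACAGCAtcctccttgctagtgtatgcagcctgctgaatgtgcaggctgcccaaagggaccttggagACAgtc
Gm22767: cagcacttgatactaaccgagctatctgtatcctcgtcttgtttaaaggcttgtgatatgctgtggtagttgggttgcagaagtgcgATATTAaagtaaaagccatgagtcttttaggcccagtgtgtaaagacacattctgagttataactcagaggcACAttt

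Members were unevenly spread over the classes that the symbols name. Of the 41 H/ACA genes (Snora) 25 were members, of the 43 Cajal body genes 12, of the 5 U3 genes (Rnu3) 3, and of the 97 C/D genes (Snord) 5. Genes whose symbol names no family gave 42 members out of 1339, and 1234 of those genes had 0 counts in both libraries. Over all 1525 genes 1330 had 0 counts in both libraries. A further 35 genes reached 10 counts in replicate 2 alone and 3 in replicate 1 alone. The 87 members held 73358 counts in replicate 1 and 132244 in replicate 2, which is 0.126% and 0.239% of all gene counts (0.183% ± 0.0799, mean ± SD, n = 2). In TPM, which divides by the effective length, they held 5.25% and 6.40% (5.82% ± 0.813, n = 2).

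Reads followed the length of the RNA. Of the genes up to 100 nt 1 of 461 was a member, at 126 to 150 nt 58 of 775, at 201 to 300 nt 12 of 25, and above 300 nt 4 of 6. Lengths here are the deposited ones, so the last 4 include Snora43, whose M21 snoRNA is 139 nt long. The C/D class is the short one, with a median length of 84 nt against 133 nt for H/ACA. None of the 86 Snord genes up to 100 nt was a member and 70 of them had 0 counts in both libraries, while 5 of the 11 longer Snord genes were members. The 86 short Snord genes held 28.45 and 191.94 counts together, and their deposited effective length was 0 in both libraries, so no TPM could stand for them. In all, 71 of the 87 members were shorter than 200 nt, the lower end of the labelled size range. Whether these short RNAs are scarce in the cells or in the libraries was not tested.

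**Figure D1:**
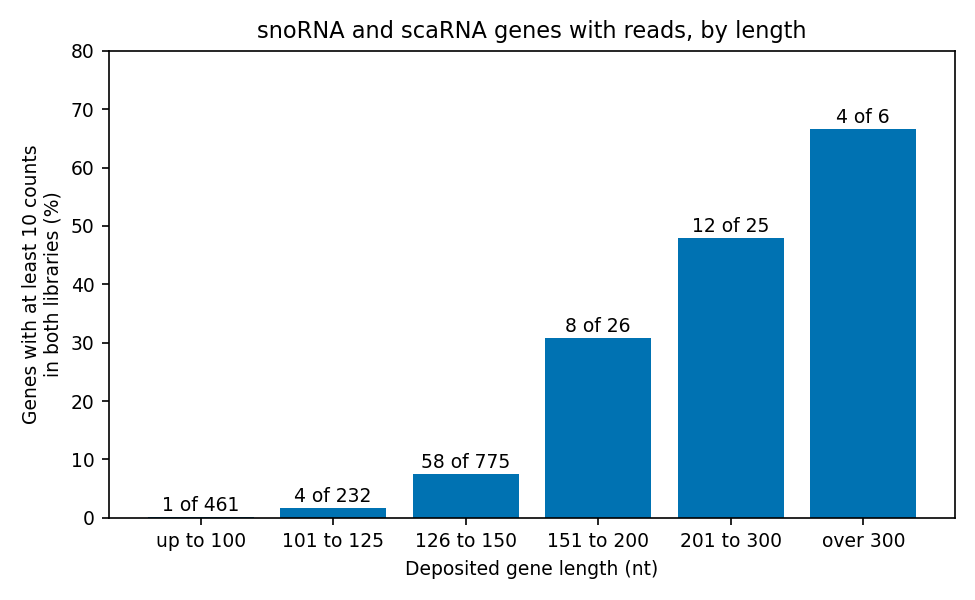
Share of snoRNA and scaRNA genes with at least 10 expected counts in both libraries (vertical axis, percent) by deposited gene length in nt (horizontal axis), with the gene numbers above each bar. The share climbs from 1 of 461 genes up to 100 nt to 4 of 6 genes over 300 nt, where Snora43 stands by its deposited length.

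The 5 C/D members were Snord15b, Snord22, Snord17, Snord15a and Snord89. Snord15b, in the ribosomal protein gene Rps3, had 252.47 and 1258.07 counts in replicates 1 and 2, or 341 and 877 TPM. Snord15a, in the same host, had 95 and 220 counts. Replicate 2 was higher for both, and Snord15b was above Snord15a in each library. Snord22, in the non-coding Snhg1, had 224.52 and 1004.12 counts. Snord17, the longest of the 5 at 238 nt and located in the sorting nexin gene Snx5, had 698 and 1052 counts but, with an effective length of 46.72 and 61.65 nt, no more than 88.5 and 100.2 TPM. Snord89 had 11 and 53 counts and an effective length of 0 in replicate 1, so its TPM was listed at 0 there and at 199.7 in replicate 2. The order of these RNAs therefore differed by scale: Snord17 was first of the 5 by counts in replicate 1 and last of the 5 by mean TPM.

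Of the U3 genes Rnu3a was counted apart from the others, whereas the 4 Rnu3b copies were not resolved. Rnu3a had 375 and 1905.64 counts in replicates 1 and 2. Rnu3b1 and Rnu3b3, whose sequences are 100% identical, had 157.62 and 1294.68 counts each. Replicate 2 was several times higher for each of these members. Rnu3b2 and Rnu3b4 had 72.38 counts each in replicate 1 and 0 in replicate 2, which kept them out of the rule. The authors' posterior mean counts in replicate 2 were 178.37 for Rnu3b2 and 83 for Rnu3b4, with posterior SDs of 116.92 and 66.09, so the split among the Rnu3b copies was not settled by the reads. Summed over the 4 Rnu3b genes the counts were 460 and 2589, a log2 difference of 2.66 after scaling.

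H/ACA members numbered 25 and held 12.0% and 15.4% of the members' counts in replicates 1 and 2. Snora74a had 4851 and 9921 counts, or 1327 and 1807 TPM, the highest of the class. Snora81, in the translation initiation helicase gene Eif4a2, had 660 and 1830 counts. Snora73a and Snora73b, known for their part in making the small ribosomal subunit, lie in Snhg3 and had 350 and 410 counts in replicate 1 against 750 and 835 in replicate 2. These 4 RNAs were all higher in replicate 2, and Snora73a and Snora73b kept nearly the same ratio to each other. Snora64 in Rps2 had 318 and 813 counts, Snora62 in Rpsa 187 and 878, and Snora41 in Eef1b2, an elongation factor gene, 208 and 627. Snora24, in Snhg8, had 99 and 865 counts, one of the widest gaps between the libraries, and Snora23, in the importin gene Ipo7, had 143 and 426. Snora73a, Snora73b and Snora23 also lie opposite a gene on the other strand. The counting strand is not given, so their counts are uncertain. The symbol Snora43 needs a caution: its counts of 884 and 845 were on deposited transcripts of 741 and 2366 nt, whereas the M21 snoRNA is 139 nt long, so they do not measure the snoRNA alone.

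Cajal body RNAs took 46.5% of the members' counts in replicate 1 and 33.9% in replicate 2, with 12 of 87 genes. Scarna10 is counted here by its symbol, although M21 types it as snoRNA. Scarna10, a guide of spliceosomal snRNA located in the condensin gene Ncapd2, had the most counts of all members, 12374 and 12725. Scarna13, in Snhg10, followed with 9333 and 12328. Scarna10 was nearly level between the libraries and Scarna13 was moderately higher in replicate 2. Scarna2, for which no host gene was found on its strand, had 2817 and 2697 counts, and Gm22009, in the importin gene Kpna4, had 1253 and 1224. These 2 long RNAs, of 414 and 343 nt, were also close to level between the libraries. Gm26083 in Snhg20 had 3055 and 5464 counts and Gm22767 in Ppp1r8, a regulator of protein phosphatase 1, had 2406 and 5664. Scarna6 and Gm25395 share the autophagy gene Atg16l1, with 1908 and 2344 counts for Scarna6 and 518 and 1218 for Gm25395. Both were higher in replicate 2, Gm25395 by the larger ratio. The remaining 4 were shorter: Gm25492 in Bud23 had 358 and 912 counts, Gm23751 in Chd4 33 and 205, Gm24289 in Tipin 13 and 36, and Scarna17 13 and 23. Scarna17, at 79 nt the shortest member, had an effective length of 0 in both libraries and thus no TPM.

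The 42 members without a family symbol held 38.8% and 44.5% of the members' counts. Gm22422, in an intron of the mitochondrial tRNA methyltransferase gene Trmt10c, had 1682 and 10020 counts. Gm23442, in an intron of Prrc2a, had 4251 and 4789, Gm23946, in the mitochondrial import gene Timm23, had 3118 and 5097, Gm22988 had 3715 and 4209, and Gm23262, in the translation initiation gene Eif4g2, had 2827 and 4159. Gm22422 thus moved far more between the libraries than Gm23442, an RNA of nearly the same length (135 and 134 nt). Gm22988 belongs to a group of 5 members of 144 nt with 88.9% to 98.6% identity, picked after its values had been seen; the other 4 are Gm25291, Gm23123, Gm24727 and Gm25117. Together these 5 had 4434 and 4983 counts, and each had a log2 difference between -0.31 and 0.49. A further 21 genes at least 80% identical to Gm22988 held 0 counts in replicate 1 and 1 in replicate 2. Over all members, 37 had a relative of at least 90% identity, and 9 were marked as sharing reads because the posterior SD of the count was over 5% of its mean.

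The boxes gave most of the unnamed RNAs a class. Searched on the transcript strand in the windows given above, which were chosen after a first look with wider ones, 54 of 87 members held ANANNA and ACA, 12 held TGATGA and CTGA, 21 held neither pair and 0 held both. Of the 25 H/ACA members 21 had the H/ACA pair, and of the 5 C/D members 4 had the C/D pair, Snord22 being without it. Among the 42 unnamed members 30 had the H/ACA pair and 3 the C/D pair, namely Gm25835, Gm23547 and Gm22486. The Cajal body members were mixed, with 5 of the C/D pair (Scarna10, Scarna6, Gm22009, Gm25395 and Scarna17), 3 of the H/ACA pair (Gm26083, Gm22767 and Gm25492) and 4 of neither. The 3 U3 members lacked the C/D pair in these windows. In 32851 promoter windows of 137 nt, the median length of the members, 0.511% held the H/ACA pair and 0.0396% the C/D pair. In the 1438 snoRNA and scaRNA genes that were no members, 12.9% held the H/ACA pair and 20.6% the C/D pair. The Cajal body box core TGAG, searched at any place in the RNA, was at 44.8% of members and 49.1% of promoter windows. These 4 letters thus do not set the members as a whole apart. By class TGAG was at 66.7% of the 12 Cajal body members, 44.0% of H/ACA and 28.6% of unnamed members. All 5 C/D and all 3 U3 members held it too. The members vary in length and the windows do not, so these shares are not matched for length.

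The order of levels depended on how length was treated. By mean TPM the first members were Gm23442 with 9337 and 5085 TPM in replicates 1 and 2 (7211 ± 3007, SD, n = 2), Gm22422 with 3524 and 10210 (6867 ± 4727), Gm22988 with 5230 and 3041 (4136 ± 1547), Gm23245 with 2904 and 4136 (3520 ± 871) and Gm25776 with 2991 and 3231 (3111 ± 169). Gm23442 was above Gm22988 in both libraries, while Gm22422 was below both of them in replicate 1 and above both in replicate 2. These differences between genes were not tested. All 5 are shorter than the mean fragment, and their effective lengths were 2.7 to 4.21 nt in replicate 1 and 5.53 to 8.13 nt in replicate 2. By scaled counts per kb of annotated length the first 5 were Gm22422, Scarna13, Scarna10, Snora74a and Gm23442. Gm22422 had 207 and 1389 CPM per kb, Scarna13 565 and 839, and Scarna10 633 and 733. The 2 orders shared 7 of their first 10 members, with a Spearman rho of 0.83 across the 86 members that have a TPM. An effective length under 10 nt applied to 65 members in replicate 1 and 63 in replicate 2. Without the members under that length in either library, the share of TPM was 0.805% in place of 5.82%.

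Scaled counts of 86 of the 87 members were higher in replicate 2. The same held for 7780 of all 13323 genes with at least 10 counts in both libraries, and for 33 of 36 snRNA genes. After TMM scaling 64 of 87 members were at least 2-fold higher in replicate 2 and 0 were at least 2-fold lower. Among all 13323 genes with the same count minimum the shares were 2.64% higher and 2.48% lower. The median log2 difference of the members was 1.64 (range -0.31 to 3.42), against 0.05 for all genes and 0.06 for 10213 protein-coding genes of like count. The 36 snRNA genes with the same minimum had 19 at least 2-fold higher and 2 lower, with a median of 1.14. One library stood on each side, so there is no test. In such bulk RNA, fewer cells with an RNA and less of it per cell cannot be told apart.

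**Figure D2:**
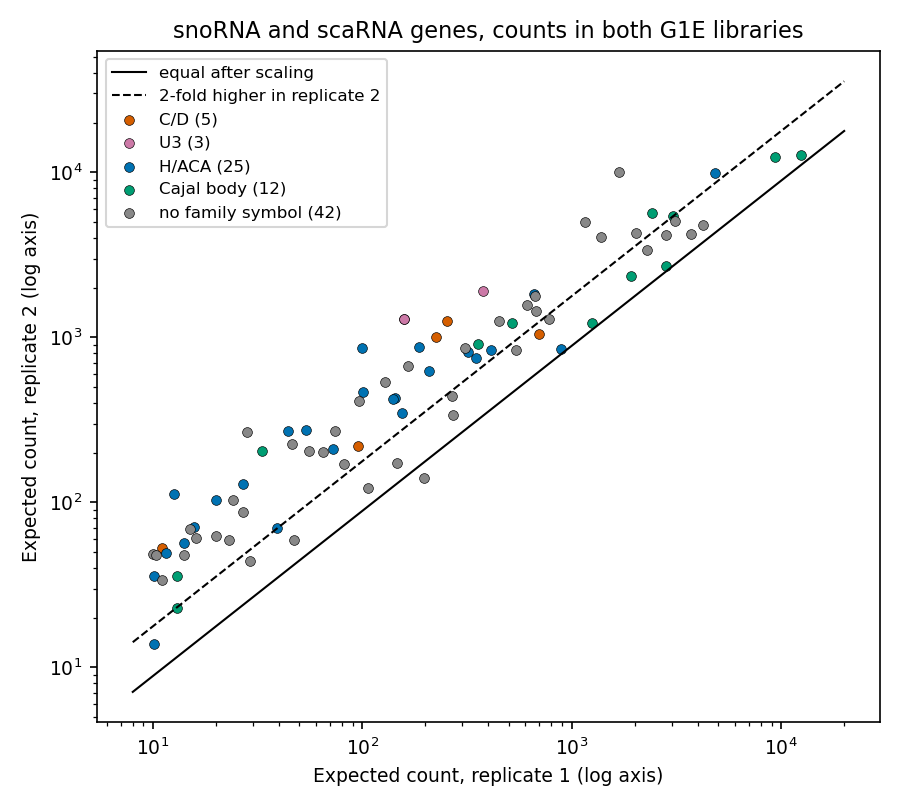
Expected counts of the 87 members in replicate 1 (horizontal) and replicate 2 (vertical), both axes logarithmic, coloured by class. The solid line marks equal scaled counts and the dashed line a 2-fold higher level in replicate 2, which 64 of 87 members reach.

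The widest differences were spread over several classes. Gm24451, in the snoRNP protein gene Nop56, had 28 and 266 counts in replicates 1 and 2, a log2 difference of 3.42 (10.7-fold, exact 95% interval 7.23 to 16.4, for counting error only). Snora5c, in Tbrg4, had 12.57 and 111.68 counts (3.32), and it is one of the members marked as sharing reads. Snora24 followed at 3.30, and Rnu3b1 and Rnu3b3 at 3.21 each, which rests on the unsettled split among the Rnu3b copies (2.66 for their sum). At the other end Gm23123 had 197.17 and 140.97 counts, with -0.31 the lone value below 0. Its fold interval of 0.644 to 1.005 holds 1. It is 98.6% identical to Gm24727, which is marked as sharing reads, and it lies opposite Fam234a. Snora43 and Scarna2 were at 0.11 each, Gm22009 at 0.14 and Scarna10 at 0.21. Of the U3 genes Rnu3a had 2.52, and the sum over all 5 had 2.60. By class the median log2 difference was 2.33 for the 5 C/D, 1.77 for the 25 H/ACA, 1.64 for the 42 unnamed and 1.00 for the 12 Cajal body members, which include the longest RNAs.

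Median differences were lower in longer length ranges for members and for other genes, but not in the same steps. From 151 to 300 nt the members stayed nearly level while the other genes fell. The 3 U3 members, of 214 to 216 nt, had log2 differences of 2.52 to 3.21, among the wider ones. At 126 to 150 nt the median log2 difference was 1.80 for 58 members and 1.62 for 6 other genes. At 151 to 200 nt it was 1.30 for 8 members and 0.86 for 35 other genes, and at 201 to 300 nt 1.26 for 12 members and 0.37 for 45 other genes. Above 300 nt it was 0.12 for 4 members and 0.05 for 13145 other genes. These 4 include Snora43, placed there by its deposited length. Of the other genes, 4 of the 6 at 126 to 150 nt and 30 of the 35 at 151 to 200 nt were snRNA genes. In those ranges the comparison is thus mostly with another class of small RNA. Over all members the Spearman rho of annotated length with the log2 difference was -0.29, and these points share both libraries. The mean fragment was shorter in replicate 2, so the effective length of members of 126 to 150 nt was 2.04 times that in replicate 1 at the median. In TPM, which divides by it, 28 of 85 members were at least 2-fold higher in replicate 2 and 1, Gm23123, at least 2-fold lower, with a median log2 of 0.53. Over all genes the TPM shares were 2.13% and 5.49% and the median -0.15. The TPM median of members was 0.56, 0.45 and 0.55 at 126 to 150, 151 to 200 and 201 to 300 nt. For other genes it was 0.40, -0.07 and -0.21. Above 300 nt it was -0.20 for members and -0.15 for other genes. Members thus showed no steady fall in TPM up to 300 nt. With 1 library a side, fragment length and any other difference between the cultures cannot be told apart.

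**Figure D3:**
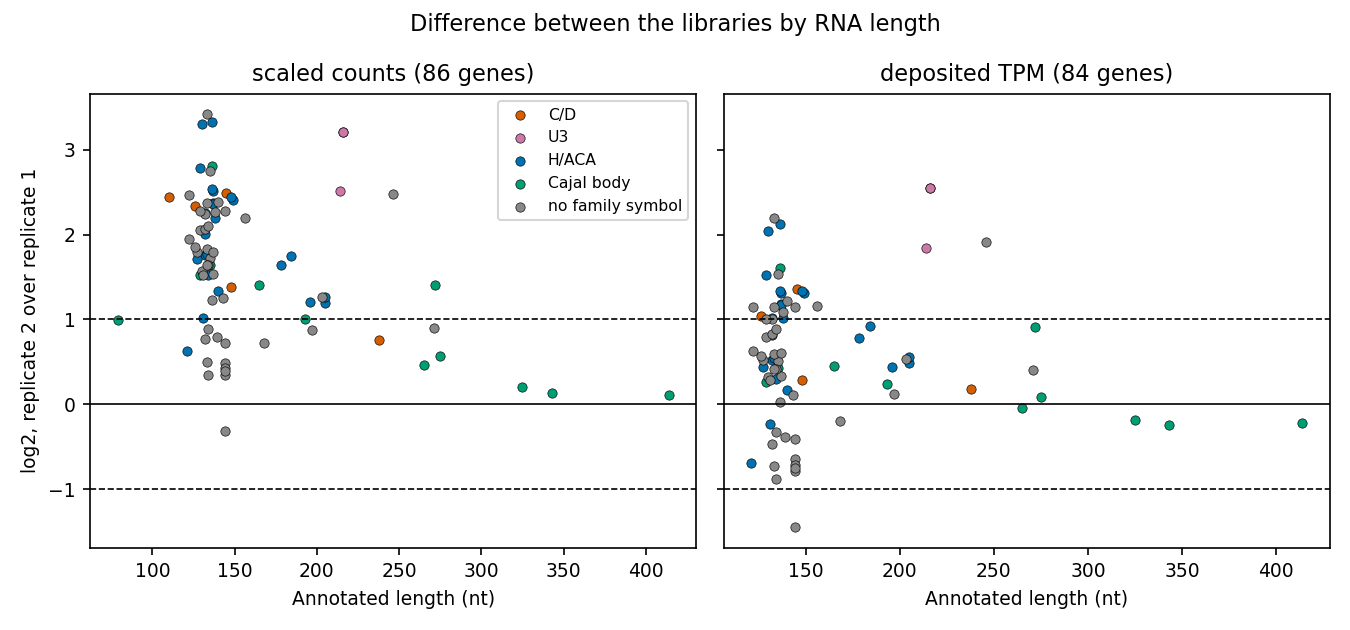
Log2 ratio of replicate 2 over replicate 1 (vertical) against annotated length in nt (horizontal) for scaled counts (left, 86 members) and deposited TPM (right, 84 members), coloured by class; dashed lines mark 2-fold. Snora43 is left out of both panels, and Snord89 and Scarna17 of the TPM panel, where they lack a value; points near 130 nt reach 3.42 in counts and lie lower in TPM.

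Of the 87 members 80 lay within a host gene on the same strand, in 67 hosts, and 7 did not: Scarna2, Rnu3a, Snora43, Gm23123, Snora57, Snora17 and Scarna17. In the M21 annotation 45 of the 80 lay in an intron of every host transcript, 22 inside an exon of at least 1 transcript and 13 partly over an exon. For the latter 35, reads of the host may count for the RNA and the reverse, and their part was not tested. Host values were at hand for 62 hosts of 75 members. Of these hosts 61 had a mean of at least 1 TPM, with a median of 32.6 TPM, whereas 39.4% of 21474 protein-coding genes reached 1 TPM. The exception was Tex14 with 0.03 and 0.02 TPM, the gene around Rnu3b1 and Rnu3b3. All these hosts belong to RNAs chosen for having reads, and the host of highest mean TPM was taken where several fit. Some hosts are also non-coding. Their share at 1 TPM or more is thus a description and no test against protein-coding genes.

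The level of a member did not follow that of its host. The Spearman rho of mean TPM over 75 members was 0.056, and the members of 1 host share a point on that axis. Ribosomal protein hosts had a median of 314 TPM and their 17 members 195 TPM. Translation factor hosts had 158 TPM and their 8 members 725 TPM. Other protein-coding hosts had 18.7 TPM and their 41 members 119 TPM, and the 7 non-coding hosts with a value 9.19 TPM, with 430 TPM for the 14 members of non-coding hosts. That kind follows the M21 types, so it holds Cct6a (56.6 TPM), a chaperonin subunit gene that M21 types as a processed transcript, with Gm23245 at 3520 TPM. Members in ribosomal protein genes thus lay below their hosts at the median and those in the other groups above. In TPM 57 of 75 members were above their host, and the median ratio was 4.40 (0.135 to 3931), where the members' effective length of a few nt enters. Between the libraries 1 of 62 hosts was at least 2-fold higher in replicate 2 in scaled counts and 0 were lower, near the 2.64% and 2.48% of all genes, so this count says nothing particular of the hosts. That host was Tex14, whose TPM did not rise with its scaled counts. The median log2 difference of hosts in scaled counts was 0.05, the same as for all genes.

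**Figure D4:**
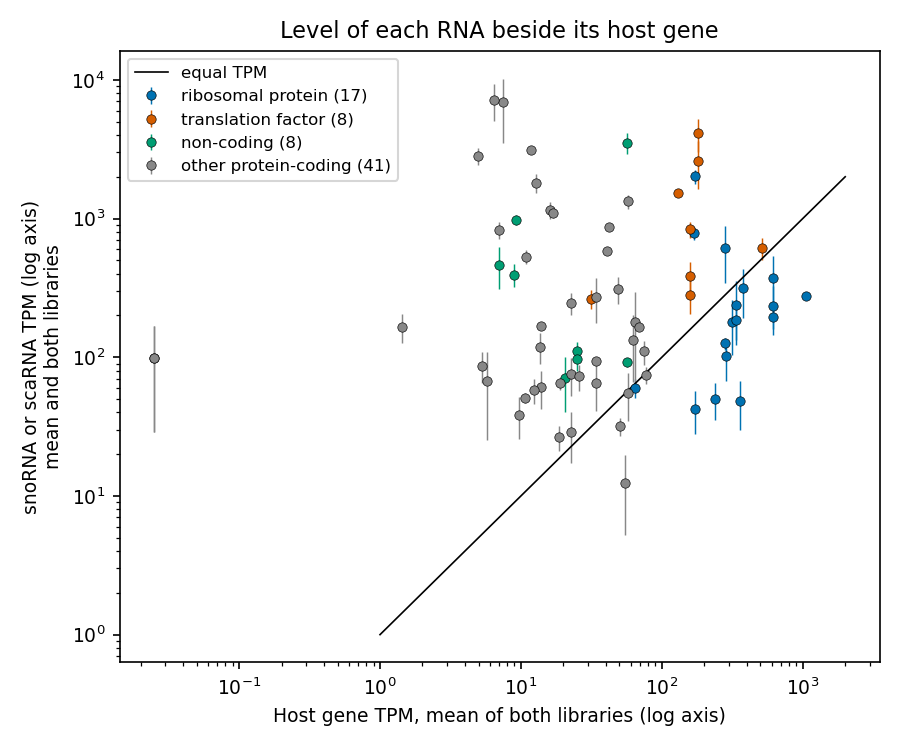
Mean TPM of 74 members (vertical; bars reach both libraries) against mean TPM of the host gene (horizontal), both axes logarithmic, coloured by kind of host. Snord89, at 0 TPM in replicate 1, is left out; points lie on both sides of the line of equal TPM with no common trend (rho 0.056).

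RNAs located in the same host could differ widely. Hosts were assigned by position, and whether each RNA is cut out of its host was not tested. Of the 67 hosts 11 held several members, 24 in all. Rpsa, a ribosomal protein gene with 586 and 645 TPM, held Gm26448 with 678 and 1442 counts, Snora62 with 187 and 878 and Gm24044 with 165 and 670. Eif4a2, with 168 and 147 TPM, held Snora81 with 660 and 1830 counts, Gm24616 with 541 and 835 and Gm26447 with 73.61 and 272.4. In both hosts every member was higher in replicate 2 after scaling. Per annotated length, the highest member over the lowest was 1.92-fold in Rpsa and 5.19-fold in Eif4a2. It was 1.13-fold in Snhg3, 25.0-fold in Taf1d, 40.5-fold in Rpl27a and 49.1-fold in Cct6a. In Cct6a, Gm23245 had 1386 and 4059 counts and Snora15 had 39 and 70. In Rpl27a, Gm24888 had 670 and 1773 counts and Snora3, marked as sharing reads, had 11.56 and 49.1. In Eif4a1 Gm22988 and Gm25835, the H/ACA and the C/D RNA printed above, were 1.25-fold apart per length on average but changed order: 3715 against 1152 counts in replicate 1 and 4209 against 4979 in replicate 2.

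**Figure D5:**
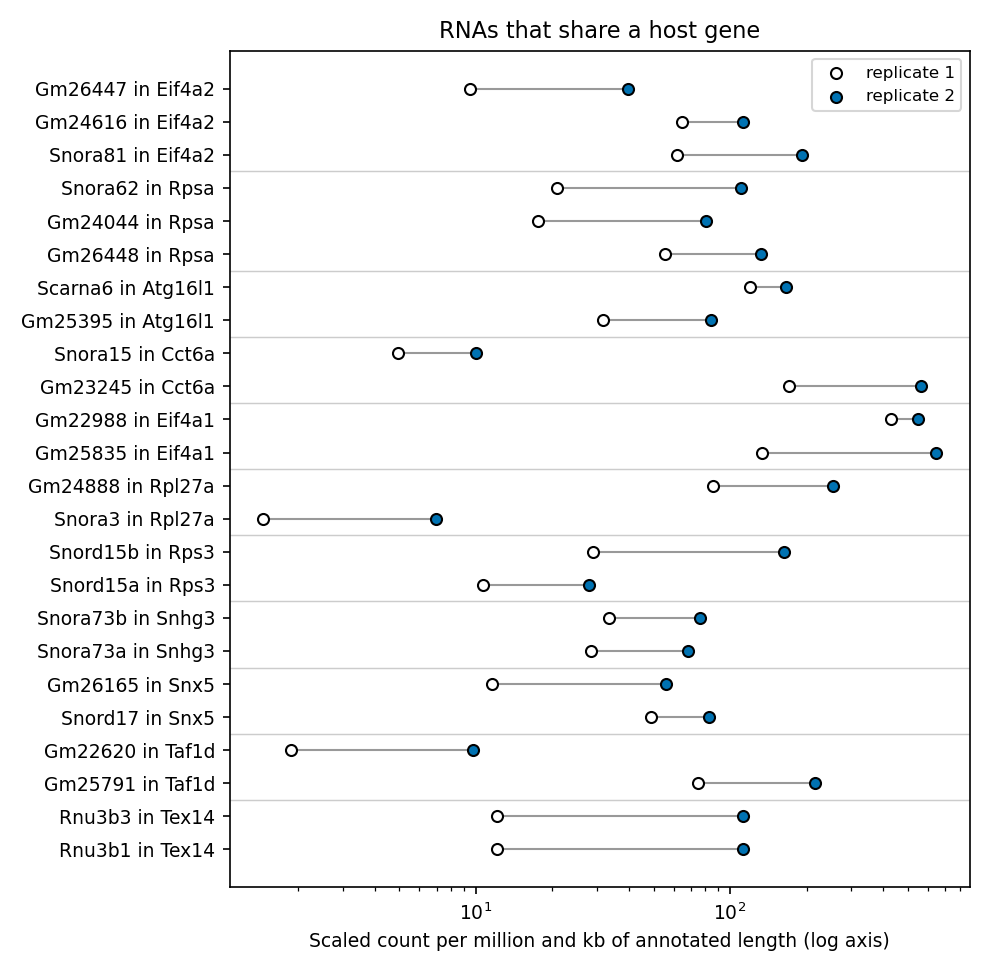
Scaled CPM per kb of annotated length (horizontal, logarithmic) for the 24 members that share a host, in replicate 1 (open) and replicate 2 (filled). Members of 1 host stand together; the 2 RNAs of Cct6a lie 49.1-fold apart on average and the 2 of Snhg3 1.13-fold.

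The proteins that bind these RNAs had reads in both libraries. Of 24 listed proteins of snoRNP structure, assembly and Cajal bodies 23 had a value, and each of the 23 was at 1 TPM or more in both libraries. In scaled counts 0 of the 23 were at least 2-fold higher and 0 lower in replicate 2, near the 2.64% and 2.48% of all genes, so this count says nothing particular of them. Their median log2 difference in scaled counts was 0.02 (-0.38 to 0.58). In TPM, Smn1, which takes part in snRNP assembly, had 8.62 and 4.6. Of the C/D core, Nop58 had 239 and 204 TPM, Nop56 71.6 and 57.9, Snu13 54 and 54.4, and the methyltransferase Fbl 26.6 and 20.5. Of the H/ACA core, Nop10 had 44.5 and 57.1 TPM, the pseudouridine synthase Dkc1 49.82 and 49.98, Nhp2 25.8 and 23.7 and Gar1 7.87 and 5.94. Gar1 was thus the lowest of the core proteins in both libraries. Among the assembly factors the highest were the helicases Ruvbl1 with 29.4 and 27.4 TPM and Ruvbl2 with 23.2 and 25.0, and Znhit6 was lowest with 2.06 and 1.88. Wrap53, which brings RNAs to Cajal bodies, had 1.77 and 1.71 TPM, and Coil, the scaffold of these bodies, 2.61 and 2.34. Of 13 genes named Snhg or Gas5 with a value, 9 were at 1 TPM or more in both libraries and 4 held a member (Snhg3, Snhg12, Snhg15 and Snhg20). Gas5, with 270 and 212 TPM the highest of them, held none.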

How the data were processed

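Total RNA of 2 G1E libraries was analysed from 1 gene table and 1 transcript table per library, on mm10 with GENCODE M4, per the deposited read-me texts. The authors' deposited values were used as they stand: expected counts (estimated counts, reads of several genes divided among them), TPM and FPKM (both divided by effective length), and posterior means with SDs. The TPM interval bounds were deposited as a score of unstated level and not used. For the aligner, quantifier and counting strand nothing is given in the sources used here. The 5 members with a gene on the opposite strand are therefore uncertain: Snora73a, Snora73b, Snora23, Snora57 and Gm23123.

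Symbols, types, coordinates and sequences came from GENCODE M21 on the same assembly, matched on the Ensembl gene identifier (42462 genes matched, 884 did not). Members and lists were chosen with earlier results of these data known. Length ranges, kinds of host, box windows, the printed sequences and the group around Gm22988 were chosen after values had been seen. Genes named are all Cajal body, C/D and host-sharing members of hosts with at least 3, the 10 H/ACA and 5 other members of highest mean count, the extremes of the library difference, those nearest the minimum, those of effective length 0, the listed proteins, and the hosts; Gm23547, Gm22486, Snora57 and the other pairs that share a host or sequence were added after their values were seen.

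Expected counts were rounded for scaling alone, with TMM in edgeR 4.0.16 (R 4.3.3); DESeq2 1.42.0 size factors, total counts, TMM over genes longer than 200 nt, deposited TPM and other minimums were tried. A gene was called where the libraries differed by at least 2-fold, with no p-value, as each side is 1 library. The steps were tested on simulated 4-fold changes in 14230 genes of replicate 2 over replicate 1: 100% of 100 raised and of 83 lowered genes were called, and 0.335% of unchanged genes. Changed genes under the count minimum were not tallied. The draws held counting error alone, so 0.335% is not the error between real libraries. There 2.64% of genes were called higher and 2.48% lower. A host is the gene on the same strand that holds the whole RNA, is no small RNA itself and has the highest mean TPM where several do. Box shares were set beside promoter windows in place of windows upstream of each gene, since no genome was used here. Python 3.11.15, pandas 2.3.3, numpy 2.4.6, scipy 1.17.1 and matplotlib 3.10.9 did the other steps. One listed marker is not reported here.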

Additional observations from a re-analysis of the deposited data

How the results depend on the processing

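Of 45 alternatives 33 kept their result, taken as a count within 1.5 times, a share or rho within 1 SD of the libraries, or a median log2 within 0.33. That last limit is the pooled SD of single genes and does not measure the error of a median. With 2 libraries each lies within 1 SD of their mean. The shares with 1 library left out could therefore only be kept, and they say nothing of robustness. The members numbered 72 to 122 over 5 alternatives (90 to 122 with 1 library left out). With 1 library left out the share of gene counts ranged from 0.126% to 0.239% and the share of TPM from 5.25% to 6.40%. The share of TPM was 0.805% without members of effective length under 10 nt in either library. Against 64 of 87 members at least 2-fold higher in replicate 2, the count was 28 of 85 in TPM, 40 of 59 at a minimum of 50, 105 of 138 with no minimum (1 lower) and 14 of 24 for members over 150 nt. The median log2 difference of 1.64 was 0.53 in TPM and 1.20 over 150 nt. The rho of members with hosts was -0.060 with member CPM, 0.025 without hosts under 1 TPM and 0.058 to 0.065 with 1 library left out. The C/D class had 14 members without replicate 1 and the U3 class 5 without replicate 2. The cause was not tested, except that other minimums and lengths leave other numbers of genes and TPM divides by effective length. The comparison of the libraries has no version with 1 library left out. No paired analysis was possible because both libraries form 1 group. With 37 members under 100 counts in replicate 1 and 20 in replicate 2, counting error limits the low members, and effective lengths of a few nt limit their TPM. The alternatives on members over 150 nt, without Snora43, without shared reads, without low hosts and without short effective lengths were chosen after seeing the data.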
